A study of Mus musculus with 16 samples.

Results

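The genes described here encode the protein-degrading enzymes of the lysosome, the proton pump that acidifies it, proteins of its membrane and a pair of transcription factors that act on lysosomal genes. Members were chosen by gene symbol alone: every Cts symbol with a single following letter, every symbol that opens with Atp6v or Atp6ap, Lamp1 and Lamp2, and Cd63, Cd68, Lgmn, Laptm5, Laptm4a, Tfeb and Mitf by name. This gave 53 of the 24411 genes of the count table, namely 19 cathepsins with legumain counted among them, 26 genes of the vacuolar proton pump (V-ATPase), 6 lysosomal membrane genes and 2 transcription factors. The rule itself uses symbols and no measured value. The pseudogene Atp6v0c-ps2 lies on Atp6v0c in the table and held the same reads (528 against 530 over all libraries, equal in 14 of 16 libraries and never more than 1 apart), so the 2 rows cannot be told apart and 52 members are counted below. Of the 53 members, 46 had a read in some library and 7 had none.

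The study set brain macrophages that had grown from a bone marrow graft against the microglia that remained in the same brain, at rest and after a challenge with lipopolysaccharide (LPS), a bacterial cell wall component that triggers inflammation. The recipients were wild-type C57BL/6J mice, irradiated with 950 cGy and then given congenic wild-type bone marrow carrying the CD45.1 allele, so graft cells carried CD45.1 and host cells CD45.2. Engrafted macrophages (Ly6C/G-, CD11b+, CD45.1 low) and host microglia (Ly6C/G-, CD11b+, CD45.2 low) were sorted from the same animals, 10000 cells a sample. Mice 1 to 4 received 2.5 mg/kg LPS 12 hours before death and mice 5 to 8 were left without an injection, which gave 4 groups of 4 libraries: engrafted control, host control, engrafted LPS and host LPS. Every mouse had been irradiated, so no microglia from an untouched brain entered any comparison. The marrow was given after irradiation, so host cells had been exposed to it and graft cells had not. Between the populations, irradiation and origin therefore cannot be told apart here. The paper names radiation damage as a possible source of such differences. It also reports that engrafted cells differed from microglia of age-matched mice without irradiation. Recipients were 6 weeks old when irradiated and were studied 9 months after transfer by the description of the experiment, while the labels name 3.5 and 9 months without tying either to a library.

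Each library was a 3′-end RNA-seq library counted on exons, with between 395283 and 1203597 reads on genes. Levels are given as CPM, counts scaled to a common size of library by TMM, edgeR's scaling by trimmed means, and 3 reads, the limit that a count of 0 allows, were worth between 2.39 and 8.41 CPM depending on the library. Intervals and this floor cover counting error only. The ± on a log2 difference or change is its standard error from edgeR's test, which also takes in variation between libraries. The library of engrafted cells from LPS mouse 4 stood apart: it was the shallowest, and its median correlation with its group, on log2 CPM across genes, was 0.8801, against 0.9259 to 0.9608 for the other libraries. All 8 markers of microglia and macrophages were above 3 reads in every group. Markers of neutrophils and their precursors summed to between 364 and 1383 CPM in the engrafted control libraries, 107 to 578 in engrafted LPS, 146 to 275 in host control and 61.9 to 99.0 in host LPS, with Mpo and Cxcr2 at 0 in engrafted control. Most of the host sums was Csf3r, at 146 to 273 CPM in control and 50.8 to 89.3 after LPS. S100a9 was at 0 to 1.6 CPM in host libraries, 73.8 to 514 in engrafted control and 2.44 to 165 in engrafted LPS. The astrocyte list summed to 146 to 253 CPM in host libraries and 3.28 to 25.3 in engrafted ones, nearly all of it Slc1a3, while Gfap was at 0 in 14 of the 16 libraries. Of the 6 osteoclast markers, Calcr and Oscar had no read in any library, Mmp9 and Dcstamp were at most 6.74 CPM, Acp5 stood at 262 to 315 CPM in the engrafted LPS libraries and 18.0 to 32.4 in engrafted control, and Ocstamp at 16.8 to 29.9 and 0 to 1.69; in host libraries Ocstamp was at 11 to 24.1 CPM after LPS and at 0 in control.

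Lysosomes break down what a macrophage takes up and what it recycles of its own. Cathepsins do most of the proteolysis: the majority are cysteine proteases, cathepsins D and E are aspartic, and cathepsins A and G are serine enzymes, all made as inactive precursors. Most work best in acid, which the V-ATPase supplies: its cytosolic V1 sector burns ATP to turn a rotor, and its membrane V0 sector carries the protons, with exchangeable subunit isoforms that place the pump in different compartments and cells. TFEB, with its relative MITF, binds a palindromic E-box, CACGTG and its extended forms, that recurs in the promoters of many lysosomal genes. Microglia are known for high lysosomal protease expression, since they clear debris, synapses and myelin in the brain.

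The E-box is shown because the members include both factors known to bind it and genes whose promoters hold its letters. In the RefSeq promoter table (build GRCm38.p6, 250 bases before to 50 after each gene's start), 41 of the 52 members had an entry by symbol; Atp6v0a2, Atp6v1h, Ctsw, Atp6v1c1, Ctsb, Atp6v0d2, Atp6v1b2, Ctse, Atp6v1g1, Ctsh and Atp6ap1l did not. The letters CACGTG, which read the same on both strands, occurred in 10 of the 41 members (24.4%) and in 8.09% of all 27025 genes of that table. TCACGTG on either strand occurred in 8 members (19.5%) and 4.29% of all genes, and the palindrome TCACGTGA, which contains both shorter forms, in 5 members (12.2%) and 1.12% of all genes. These matches describe letters in a window and no binding was measured. The stretches around TCACGTGA follow, 5′ to 3′ on the strand of the gene, with that motif in capitals; they end at most 30 bases after the start.
Ctsd (chr7:142387893-142387952, minus strand): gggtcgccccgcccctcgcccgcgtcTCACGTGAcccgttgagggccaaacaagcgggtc
Ctsa (chr2:164833734-164833793, plus strand): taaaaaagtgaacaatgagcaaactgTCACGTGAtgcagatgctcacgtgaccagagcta
Atp6v1a (chr16:44139358-44139417, minus strand): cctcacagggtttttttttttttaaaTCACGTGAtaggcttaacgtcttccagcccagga
Atp6v0d1 (chr8:105566035-105566094, minus strand): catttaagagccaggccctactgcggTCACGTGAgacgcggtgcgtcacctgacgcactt
Atp6v0e (chr17:26676372-26676425, plus strand): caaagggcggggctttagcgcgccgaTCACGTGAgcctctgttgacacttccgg
Ctsa carries a second copy of the motif within the stretch shown, in lower case here. The 5 genes did not share a direction after LPS: Ctsd and Ctsa fell in both populations, Atp6v0e rose in both, Atp6v0d1 rose in engrafted macrophages, and Atp6v1a passed in neither.

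Together the 52 members held 4.74% ± 0.0757 of the reads on genes in host control libraries and 3.82% ± 0.195 in engrafted control (SD, n = 4). After LPS the shares were 4.45% ± 0.18 in host and 3.05% ± 0.166 in engrafted libraries. Cathepsins made up most of it, at 3.53% ± 0.0461 in host control, 2.88% ± 0.16 in engrafted control, 3.37% ± 0.172 in host LPS and 2.21% ± 0.13 in engrafted LPS. In each treatment every engrafted library lay below every host library for cathepsins and for lysosomal membrane genes. The V-ATPase held 0.281% ± 0.00821 in host control, 0.245% ± 0.0137 in engrafted control and 0.26% in both LPS groups, so its shares overlapped after LPS. These shares are descriptions of read counts and were not tested.

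**Figure D1:**
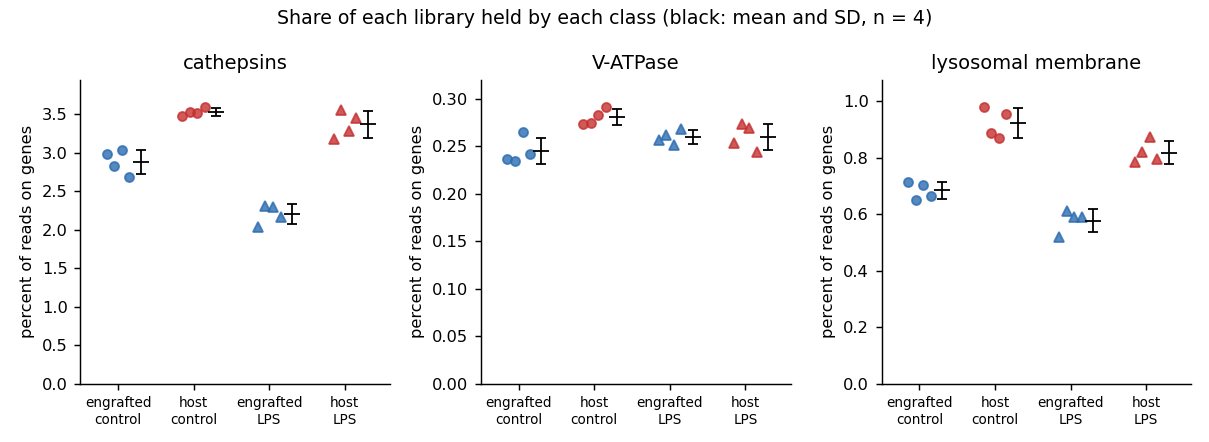
Percent of each library's reads on genes held by the cathepsins, the V-ATPase genes and the lysosomal membrane genes, with one point per library (circles, control; triangles, LPS; blue, engrafted; red, host) and black bars for the mean and SD of 4 libraries. Cathepsins took 2.88% of engrafted control reads against 3.53% in host control, and 2.21% against 3.37% after LPS.

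Of the 52 members, 34 passed edgeR's filter on low counts in all 5 comparisons, 16 in none, and 36, 35, 36, 35 and 36 could be tested in the comparisons taken in the order below. Tests were edgeR's quasi-likelihood tests over all genes that passed, with Benjamini-Hochberg adjustment, and a member is called at an adjusted p below 0.05. Between engrafted macrophages and host microglia of control mice, 5 of 36 members (13.9%) were higher in engrafted cells, beside 13.7% of all 8042 genes, 10 (27.8%) were lower, beside 13.7%, and 6 (16.7%) were past 2-fold, beside 11.0%. In LPS mice, 4 of 35 (11.4%) were higher in engrafted cells, beside 9.52% of all 7843 genes, 6 (17.1%) were lower, beside 7.64%, and 4 (11.4%) were past 2-fold, beside 11.1%. The shares of members stood close to the background for higher calls and above it for lower ones, and Ctse, in both higher counts, passed the filter only through its engrafted libraries.

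LPS raised 8 of 36 members (22.2%) in engrafted macrophages, beside 19.5% of all 7609 genes, lowered 11 (30.6%), beside 19.3%, and took 7 (19.4%) past 2-fold, beside 21.5%. In host microglia 7 of 35 (20.0%) rose, beside 19.2% of all 8238 genes, 12 (34.3%) fell, beside 20.5%, and 7 (20.0%) were past 2-fold, beside 18.0%. The difference between the LPS effects of the 2 populations, tested as an interaction over all 16 libraries, was positive for 1 of 36 members (2.78%, beside 2.97% of all 8847 genes) and negative for 2 (5.56%, beside 2.90%), and 2 were past 2-fold (5.56%, beside 4.95%). Median sizes of the log2 differences without regard to sign were 0.24 for members and 0.32 for all genes in the control comparison, 0.39 and 0.32 in LPS mice, 0.54 and 0.50 for LPS in engrafted cells, 0.46 and 0.44 for LPS in host cells, and 0.29 and 0.38 for the interaction. The comparisons share libraries, so their member lists are not independent of each other. In bulk samples, fewer cells of a type and less RNA per cell cannot be told apart.

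Among the 12 cathepsins tested in control mice, 3 were higher in engrafted macrophages (Ctse, Ctsc and Ctsh), beside 13.7% of all genes. Another 6 were lower (Ctsl, Ctsf, Lgmn, Ctso, Ctsz and Ctss), also beside 13.7%. Ctse, whose product cathepsin E is an aspartic protease of endosomes in immune cells, stood at 250, 214, 238 and 241 CPM in the engrafted libraries of mice 5 to 8 and at 1.46, 1.94, 2.39 and 4.08 CPM in the host libraries. It was thus plainly present in every engrafted library and at 1 to 4 reads in every host library, near the floor. Summed over libraries, 654 reads against 10 gave a ratio of CPM of 93.8 (95% exact binomial interval 50.7 to 196). The fitted log2 difference of 6.52, a fold of 91.8, rests on the same 10 host reads. Ctse reached the count minimum in 4 engrafted and 0 host libraries of each treatment, so it entered these comparisons only through the group where it is high and had to differ; its call there is a description. In LPS mice the engrafted libraries held 76.1, 87.8, 87.2 and 146 CPM and the host libraries 1.15, 1.99, 4.83 and 4.17, a ratio of 31.2 (16.7 to 65.9). The gene lies at chr1:133534891-133572084 (mm9), 6.39 Mb from Ptprc (chr1:139959436-140071703), whose CD45.1 and CD45.2 alleles separated graft from host, so donor alleles around Ptprc and engrafted origin cannot be told apart at this gene.

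Ctse also responded to LPS inside the engrafted population. All 4 engrafted LPS libraries lay below all 4 engrafted control libraries, with a log2 change of -1.33 ± 0.20 (edgeR adjusted p = 3.05e-05). Among the LPS libraries mouse 4, the library that stands apart, was the highest. In host libraries the gene was too low to test, and the interaction of -1.54 ± 0.65 did not pass (edgeR adjusted p = 0.178, and between 0.02 and 0.44 over 22 alternatives).

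Ctsc encodes dipeptidyl peptidase I, which removes N-terminal dipeptides and so activates the serine proteases of leukocyte granules. Its control levels were 803, 814, 762 and 799 CPM in engrafted macrophages and 290, 369, 395 and 277 CPM in host microglia, a log2 difference of 1.31 ± 0.13 (edgeR adjusted p = 8.56e-09). After LPS the engrafted libraries held 525, 390, 572 and 648 CPM and the host libraries 636, 623, 600 and 593 CPM. The populations moved toward each other: every engrafted LPS library was below every engrafted control library, every host LPS library was above every host control library, and the LPS libraries of the 2 populations overlapped. The log2 change was -0.61 ± 0.19 in engrafted cells (edgeR adjusted p = 0.0146; 0.0555 without mouse 2 of the engrafted LPS group) and 0.87 ± 0.15 in host cells (edgeR adjusted p = 5.79e-05). Between the populations after LPS it was -0.18 ± 0.20 (edgeR adjusted p = 0.624). Neutrophils carry Ctsc too. The neutrophil list summed to 364 to 1383 CPM in engrafted control and 107 to 578 in engrafted LPS libraries. In host libraries it summed to 146 to 275 CPM in control and 61.9 to 99.0 after LPS, most of it Csf3r. The part of neutrophils in the result was not tested. Ctsc was the only member with LPS calls of opposite sign in the 2 populations, and the interaction of -1.49 ± 0.24 passed (edgeR adjusted p = 0.000167) in each of the 23 alternatives run.

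Ctsl, the gene of cathepsin L, a broadly acting lysosomal endopeptidase, showed the reverse difference between the populations. It held 286, 285, 301 and 292 CPM in engrafted control libraries and 1015, 1167, 1133 and 1225 CPM in host control libraries. The log2 difference was -1.91 ± 0.11 (edgeR adjusted p = 8.62e-13), with no overlap. After LPS the engrafted libraries held 603, 758, 615 and 796 CPM and the host libraries 2289, 2730, 2068 and 2174 CPM, and the difference was -1.72 ± 0.19 (edgeR adjusted p = 3.22e-06). LPS raised Ctsl in engrafted cells by 1.22 ± 0.18 (edgeR adjusted p = 1.95e-05) and in host cells by 1.02 ± 0.14 (edgeR adjusted p = 4.85e-06) on the log2 scale. Every LPS library was above every control library of its population. The interaction of 0.19 ± 0.21 did not pass (edgeR adjusted p = 0.685), and the highest engrafted LPS library remained below the lowest host control library.

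Ctsf, for cathepsin F, a cysteine protease whose loss in humans causes a neuronal storage disease, was low in engrafted cells as well but fell after LPS. Engrafted control libraries held 143, 121, 115 and 124 CPM and host control libraries 343, 384, 373 and 358 CPM, a log2 difference of -1.47 ± 0.13 (edgeR adjusted p = 3e-09). LPS libraries held 40.3, 73.2, 62.5 and 39.2 CPM in engrafted and 147, 147, 164 and 191 CPM in host cells, a difference of -1.54 ± 0.21 (edgeR adjusted p = 3.9e-05). The 4 groups stood in the order host control, host LPS, engrafted control, engrafted LPS with no overlap between neighbours in that order. LPS lowered the gene by a log2 change of -1.24 ± 0.21 in engrafted and -1.19 ± 0.14 in host cells (edgeR adjusted p = 8.69e-05 and 8.75e-07).

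Ctsd had the highest mean CPM of the cathepsins over all 16 libraries, although Ctss averaged 7002 CPM in the engrafted LPS group, where Ctsd averaged 6746. Its product, cathepsin D, is the main aspartic endopeptidase of lysosomes. Control libraries held 12706, 11416, 12901 and 10905 CPM in engrafted and 13608, 13453, 12166 and 14381 CPM in host cells, which overlapped, with a log2 difference of -0.10 ± 0.09 (edgeR adjusted p = 0.45). LPS libraries held 6003, 8073, 7012 and 5896 CPM in engrafted and 9096, 10145, 9888 and 10913 CPM in host cells, without overlap. The difference after LPS was -0.55 ± 0.17 (edgeR adjusted p = 0.0372), a call lost in 8 of its 16 alternatives, among them without engrafted LPS mouse 4 (adjusted p = 0.0581). LPS lowered Ctsd in both populations, by -0.87 ± 0.16 in engrafted and -0.43 ± 0.13 in host cells (edgeR adjusted p = 0.000303 and 0.0123).

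**Figure D2:**
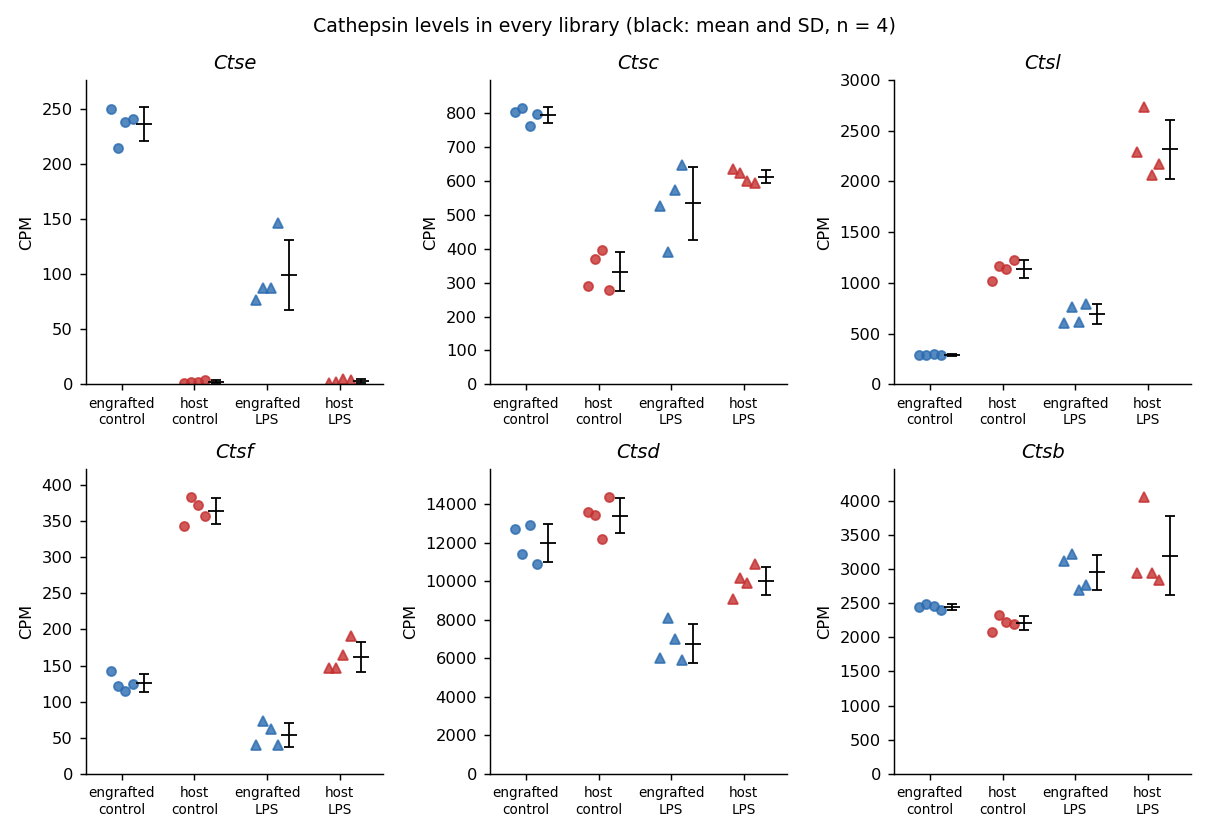
CPM of 6 cathepsins in every library, with one point per library (circles, control; triangles, LPS; blue, engrafted; red, host), black bars for the mean and SD of 4 libraries and each vertical axis starting at 0. Ctse is near 0 in both host groups, Ctsc falls in engrafted and rises in host cells, and Ctsl rises in both with engrafted LPS libraries (603 to 796 CPM) still under the host control libraries (1015 to 1225 CPM).

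The other cathepsins differed less. Cathepsin S, the antigen-processing protease of macrophages and B cells, cathepsin Z, a carboxypeptidase, and legumain, which cleaves after asparagine and matures other cathepsins, were lower in engrafted cells of control mice, with log2 differences of -0.38 ± 0.10 for Ctss, -0.46 ± 0.10 for Ctsz and -0.78 ± 0.10 for Lgmn. In LPS mice Ctss stood at -0.49 ± 0.18 (edgeR adjusted p = 0.0777), lower in engrafted cells in 4 of 4 mice. It passed in 6 of 16 alternatives, among them with the mouse as a block (edgeR adjusted p = 0.0379) and without engrafted LPS mouse 4 (-0.58, edgeR adjusted p = 0.0236). Ctso was lower by -0.48 ± 0.17, a call lost in 8 of its 16 alternatives, and Ctsh, an aminopeptidase, was higher by 0.42 ± 0.11. LPS lowered Ctsa, the serine carboxypeptidase that also shields lysosomal sialidase, by -0.80 ± 0.16 in engrafted and -0.42 ± 0.13 in host cells, and Ctsh by -0.52 ± 0.18 and -0.54 ± 0.13. The engrafted call of Ctsh was lost in 5 of 15 alternatives, and the host call of Ctsa without host LPS mouse 1, as was that of Ctsd (adjusted p = 0.0527 and 0.058). Lgmn fell in host microglia, by -0.61 ± 0.13, and its interaction of 0.57 ± 0.21 did not pass (edgeR adjusted p = 0.12). Ctsb, for cathepsin B, rose in host cells by 0.52 ± 0.14 and stood at 0.23 ± 0.16 in engrafted cells, where it did not pass (edgeR adjusted p = 0.256). Calls in this paragraph had edgeR adjusted p between 0.0376 and 1.01e-06.

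**Figure D3:**
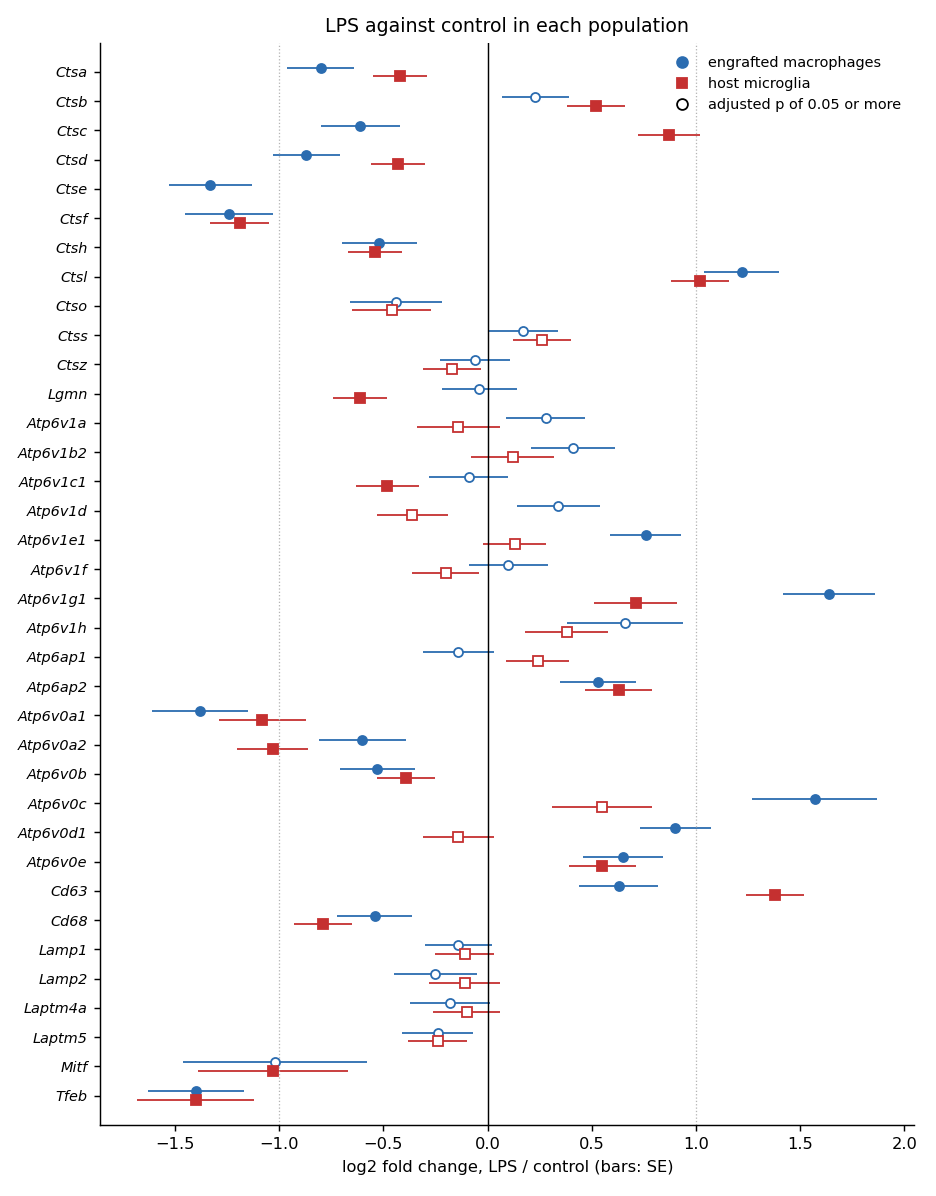
Log2 fold change of LPS over control with its SE for each member that could be tested, in engrafted macrophages (blue circles) and host microglia (red squares), with filled symbols for an adjusted p below 0.05, open symbols for the rest and dotted lines at 2-fold. Most called members lie on the same side of 0 in both populations, while Ctsc is at -0.61 in engrafted and 0.87 in host cells.

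Of the V-ATPase genes, 25 were counted and 16 tested. In control mice 2 differed, both lower in engrafted cells (beside 13.7% of all genes), and 14 did not pass. After LPS 3 were higher and 2 lower in engrafted than in host cells (beside 9.52% and 7.64%). LPS raised 6 and lowered 3 in engrafted macrophages (beside 19.5% and 19.3%), and raised 3 and lowered 4 in host microglia (beside 19.2% and 20.5%, shares close to those of the pump genes). Osteoclasts are rich in the pump; of their 6 markers, Acp5 was higher after LPS in engrafted libraries and Ocstamp in those of both populations, as given above, while Calcr and Oscar were at 0 and Mmp9 and Dcstamp at or near it, and their part in these results was not tested.

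In the V1 sector, Atp6v1c1 encodes the C subunit, which bridges the stator and comes off when the pump disassembles. It held 79.6, 75.9, 77.0 and 64.8 CPM in engrafted control and 176, 155, 167 and 159 CPM in host control libraries, a log2 difference of -1.07 ± 0.13 (edgeR adjusted p = 6.11e-07). After LPS the levels were 76.1, 83.0, 72.9 and 50.5 CPM in engrafted and 98.6, 141, 110 and 125 CPM in host cells, with a difference of -0.70 ± 0.19 (edgeR adjusted p = 0.016). The engrafted libraries were below the host libraries in both treatments without overlap. LPS lowered the gene in host microglia by -0.48 ± 0.15 (edgeR adjusted p = 0.0155; 0.0744 without mouse 1 of the host LPS group).

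Atp6v1g1 encodes a G subunit of the V1 stator stalks. Control libraries held 65.5, 87.7, 73.7 and 106 CPM in engrafted and 70.3, 79.6, 74.2 and 69.4 CPM in host cells, which overlapped at a difference of 0.21 ± 0.17 (edgeR adjusted p = 0.384). After LPS the engrafted libraries held 256, 240, 203 and 364 CPM and the host libraries 104, 182, 107 and 87.6 CPM. Every LPS library was above all control libraries of its population in both cases, and the engrafted LPS libraries were above all host LPS libraries. The log2 change was 1.64 ± 0.22 in engrafted cells (edgeR adjusted p = 6.23e-06) and 0.71 ± 0.20 in host cells (edgeR adjusted p = 0.00671), and the difference after LPS was 1.15 ± 0.25 (edgeR adjusted p = 0.00278). The test of the difference between the LPS effects gave 0.92 ± 0.31 and did not pass (edgeR adjusted p = 0.0761), although it passed in 4 of its 23 alternatives, among them DESeq2, with adjusted p between 0.00797 and 0.159 over them all.

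The stalk partner Atp6v1e1, the E subunit, rose by 0.76 ± 0.17 in engrafted macrophages (edgeR adjusted p = 0.00126), and after LPS it was higher there than in host microglia by 0.59 ± 0.18 (edgeR adjusted p = 0.0261), a call lost in 7 of its 16 alternatives. Atp6v1f, the rotor F subunit and the V1 gene of highest mean CPM over all 16 libraries, did not pass in any comparison. Its control libraries held 204, 273, 347 and 308 CPM in engrafted and 302, 262, 303 and 237 CPM in host cells, and its LPS libraries 317, 349, 314 and 264 CPM and 259, 303, 206 and 196 CPM. These ranges overlapped in every comparison. The A and B subunits, Atp6v1a and Atp6v1b2, and Atp6v1d and Atp6v1h also passed nowhere.

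In the V0 sector, the 6 genes tested passed with LPS in engrafted macrophages, 3 up and 3 down (beside 19.5% and 19.3% of all genes), but the falls of Atp6v0a2 and Atp6v0b were lost in 9 and 6 of 15 alternatives. Atp6v0d1 encodes the d subunit that seats the rotor on the proton ring. Control libraries held 141, 123, 106 and 113 CPM in engrafted and 119, 156, 183 and 211 CPM in host cells, and LPS libraries 240, 245, 191 and 255 CPM and 138, 189, 144 and 146 CPM. The engrafted LPS libraries were above every engrafted control and every host LPS library, and the lowest of them lay below the highest host control library. LPS raised the gene in engrafted cells by 0.90 ± 0.17 (edgeR adjusted p = 0.00038), the host change was -0.14 ± 0.17 (edgeR adjusted p = 0.561), and the interaction of 1.02 ± 0.25 passed (edgeR adjusted p = 0.0141) in all 23 alternatives. After LPS the engrafted level was higher by 0.61 ± 0.19 (edgeR adjusted p = 0.0308), a call lost in 6 of its 16 alternatives.

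Atp6v0c, the proteolipid that forms most of the proton ring, was measured together with its pseudogene row. Its counts were low, with 20.1, 23.6, 32.8 and 12.6 CPM in engrafted control and 24.9, 43.7, 27.9 and 27.6 CPM in host control libraries. After LPS they were 69.3, 64.7, 45.5 and 104 CPM in engrafted and 56.2, 35.9, 59.2 and 33.4 CPM in host cells. The engrafted groups did not overlap, and the host groups did. The count minimum was met in 4 engrafted LPS and 3 engrafted control libraries. The log2 change was 1.57 ± 0.30 in engrafted cells (edgeR adjusted p = 0.000341) and 0.55 ± 0.24 in host cells (edgeR adjusted p = 0.0708, and below 0.05 in 4 of its 15 alternatives), and their difference of 1.01 ± 0.41 did not pass (edgeR adjusted p = 0.15).

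The a subunits hold the proton path and differ between compartments. Among them Atp6v0a1 and Atp6v0a2 went the other way, and Tcirg1 passed in no comparison, as given below. Atp6v0a1, the isoform best known from neurons and synaptic vesicles, held 241, 170, 200 and 155 CPM in engrafted control, 249, 205, 219 and 294 in host control, 52.6, 62.2, 84.6 and 118 in engrafted LPS and 94.0, 66.8, 134 and 170 in host LPS libraries. LPS libraries were below the control libraries of their own population without overlap, with log2 changes of -1.38 ± 0.23 in engrafted and -1.08 ± 0.21 in host cells (edgeR adjusted p = 9.93e-05 and 0.000307). Atp6v0a2, an isoform of the Golgi and endosomes, held 61.4, 77.5, 103 and 93.6 CPM in engrafted control, 183, 219, 199 and 230 in host control, 54.8, 53.7, 53.3 and 67.3 in engrafted LPS and 111, 73.8, 133 and 93.2 in host LPS libraries. Engrafted libraries were below host libraries in both treatments, by -1.27 ± 0.16 in control mice (edgeR adjusted p = 4.94e-07) and -0.84 ± 0.22 in LPS mice (edgeR adjusted p = 0.0104). LPS lowered Atp6v0a2 by -1.03 ± 0.17 in host cells (edgeR adjusted p = 5.49e-05), where the groups did not overlap, and by -0.60 ± 0.21 in engrafted cells (edgeR adjusted p = 0.0322), where they did and where 9 of 15 alternatives lost the call.

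Tcirg1, whose product is the a3 isoform of macrophage and osteoclast lysosomes, is not matched by the symbol rule and was looked up with the other pathway genes. It averaged 651 ± 65.6 CPM in engrafted control, 626 ± 69.7 in host control, 776 ± 234 in engrafted LPS and 562 ± 27.9 in host LPS libraries (SD, n = 4). Its engrafted LPS libraries held 852, 1024, 762 and 465 CPM, the last from mouse 4, whose library stands apart. Engrafted control libraries held 574 to 726 CPM and host LPS libraries 526 to 592. Tcirg1 passed in no comparison, with edgeR adjusted p between 0.143 and 0.546. Whether its change differed from those of Atp6v0a1 and Atp6v0a2 was not tested.

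Atp6v0b, the minor proteolipid of the ring and the V0 gene of highest mean CPM over all 16 libraries, held 480, 580, 696 and 614 CPM in engrafted control, 474, 515, 521 and 613 in host control, 383, 444, 388 and 474 in engrafted LPS and 398, 371, 461 and 408 in host LPS libraries. The LPS libraries were below the control libraries in both populations, at -0.53 ± 0.18 and -0.39 ± 0.14 (edgeR adjusted p = 0.0269 and 0.0332), calls lost in 6 and 8 of 15 alternatives. Atp6v0e rose by 0.65 ± 0.19 in engrafted and 0.55 ± 0.16 in host cells (edgeR adjusted p = 0.00903 and 0.00863). Among accessory genes, Atp6ap2, the prorenin receptor and a V-ATPase assembly factor, rose by 0.53 ± 0.18 and 0.63 ± 0.16 (edgeR adjusted p = 0.0229, lost in 6 of 15 alternatives, and 0.00355), and Atp6ap1 passed nowhere.

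**Figure D4:**
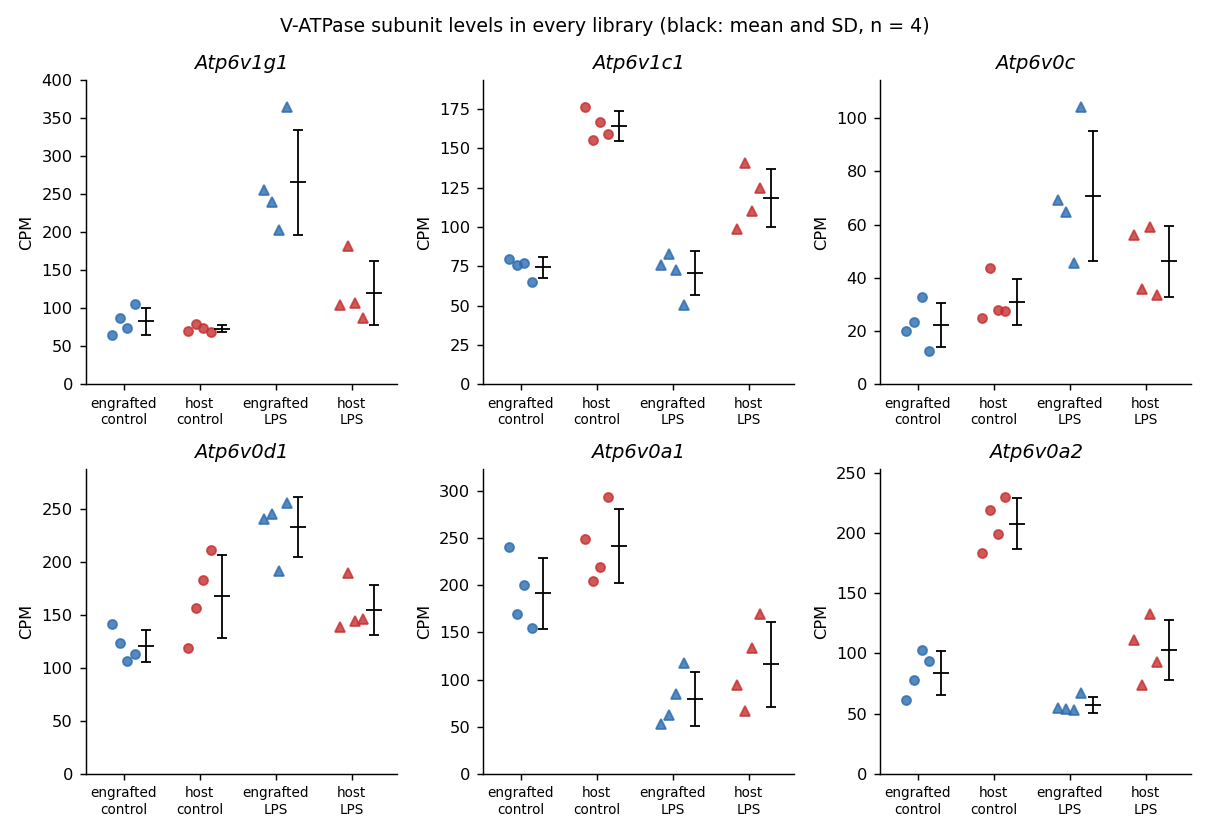
CPM of 6 V-ATPase subunit genes in every library, with one point per library (circles, control; triangles, LPS; blue, engrafted; red, host), black bars for the mean and SD of 4 libraries and each vertical axis starting at 0. Atp6v1g1, Atp6v0c and Atp6v0d1 are highest in engrafted LPS libraries, at means of 266, 70.8 and 233 CPM, while Atp6v0a1 and Atp6v0a2 are lower after LPS in both populations.

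Of the 6 lysosomal membrane genes, all tested, 2 were higher in engrafted cells of control mice (Cd63 and Laptm4a), beside 13.7% of all genes. Another 2 were lower (Laptm5 and Cd68), also beside 13.7%. Cd63 encodes a tetraspanin of late endosomes and exosomes. It held 588, 565, 564 and 493 CPM in engrafted control and 353, 350, 403 and 311 CPM in host control libraries, a log2 difference of 0.70 ± 0.12 (edgeR adjusted p = 7.64e-05). After LPS the levels were 720, 732, 954 and 1099 CPM in engrafted and 906, 1027, 1001 and 790 CPM in host cells, which overlapped at a difference of -0.06 ± 0.20 (edgeR adjusted p = 0.891). LPS raised it by 1.38 ± 0.14 in host microglia (edgeR adjusted p = 1.16e-07) and by 0.63 ± 0.19 in engrafted macrophages (edgeR adjusted p = 0.0124). The interaction of -0.76 ± 0.23 was at the threshold (edgeR adjusted p = 0.0489). It lost the call in 15 of 23 alternatives, most of them leaving out a single library, with adjusted p from 0.0046 to 0.116.

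Laptm5, a membrane protein of leukocyte lysosomes and the membrane gene of highest mean CPM over all 16 libraries, held 2955, 2952, 3285 and 3024 CPM in engrafted control and 5146, 4850, 4501 and 5747 CPM in host control libraries. The log2 difference was -0.67 ± 0.10 (edgeR adjusted p = 8.74e-06). LPS libraries held 2355, 3431, 2332 and 2484 CPM in engrafted and 4020, 4312, 4648 and 4307 CPM in host cells, with a difference of -0.68 ± 0.18 (edgeR adjusted p = 0.0135), past 0.05 (to 0.0547) without engrafted LPS mouse 1 or 3. Engrafted libraries were below host libraries throughout, and LPS did not change the gene in a way that passed in either population. Cd68, the macrophage member of the LAMP family, was lower in engrafted control cells by -0.40 ± 0.10 and fell with LPS by -0.54 ± 0.18 in engrafted and -0.79 ± 0.14 in host cells (edgeR adjusted p = 0.00553, 0.0238 and 0.000111), and 4 of 15 alternatives lost the engrafted call. Laptm4a was higher in engrafted control cells by 0.32 ± 0.11 (edgeR adjusted p = 0.0404), with libraries that overlapped, and 9 of 16 alternatives lost the call (adjusted p up to 0.24). Lamp1 and Lamp2, the abundant glycoproteins of the lysosomal membrane, passed in no comparison.

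Tfeb held 110, 87.7, 121 and 103 CPM in engrafted control and 98.1, 86.4, 88.5 and 109 CPM in host control libraries, and 47.0, 24.4, 44.2 and 53.3 CPM in engrafted LPS and 21.8, 16, 50.7 and 61.2 CPM in host LPS libraries. LPS lowered it in both populations, by -1.40 ± 0.23 in engrafted cells (edgeR adjusted p = 7.32e-05) and -1.40 ± 0.28 in host cells (edgeR adjusted p = 0.000349). No LPS library reached the lowest control library of its population, whereas engrafted and host libraries overlapped in both treatments. Mitf was much scarcer, at 16.1, 18.5, 24.6 and 12.6 CPM in engrafted control, 26.4, 13.6, 13.6 and 16.3 in host control, 12.3, 3.66, 5.20 and 19.6 in engrafted LPS and 4.59, 6.98, 9.66 and 12.5 in host LPS libraries, with several values near the floor. The LPS change of -1.03 ± 0.36 passed in host cells (edgeR adjusted p = 0.0277), where 4 control libraries and 1 LPS library met the count minimum, so the gene entered through the group where it is higher. The call was lost in 5 of its 14 alternatives, among them without host LPS mouse 1 or 2 or host control mouse 5. In engrafted cells it was -1.02 ± 0.44 (edgeR adjusted p = 0.0733), and without engrafted LPS mouse 4, whose library stands apart, -1.33 (edgeR adjusted p = 0.0205).

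**Figure D5:**
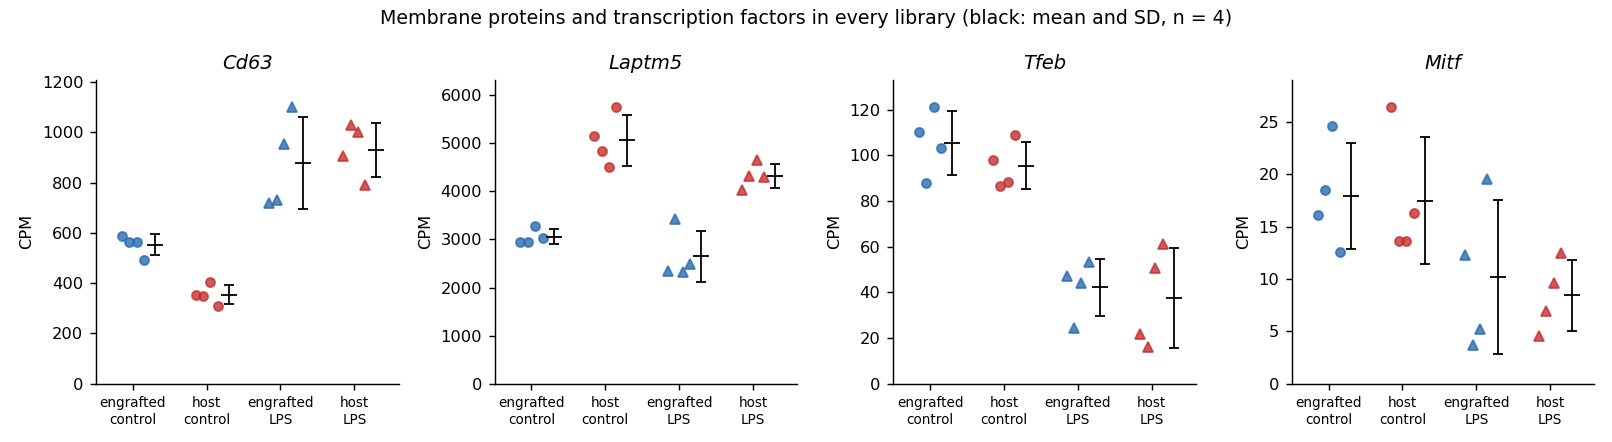
CPM of Cd63, Laptm5, Tfeb and Mitf in every library, with one point per library (circles, control; triangles, LPS; blue, engrafted; red, host), black bars for the mean and SD of 4 libraries and each vertical axis starting at 0. Tfeb is lower after LPS in both populations (means of 42.2 against 105 CPM in engrafted and 37.4 against 95.6 CPM in host cells), and Laptm5 is lower in engrafted than in host libraries in both treatments.

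Read side by side, the LPS calls fell into few patterns. Of the 35 members tested in both populations, 5 (14.3%) were higher in both (Ctsl, Cd63, Atp6v1g1, Atp6v0e and Atp6ap2), beside 11.2% of 7286 genes, and 9 (25.7%) were lower in both (Ctsa, Ctsd, Ctsf, Ctsh, Cd68, Tfeb, Atp6v0a1, Atp6v0a2 and Atp6v0b), beside 12.3%. Another 3 (Atp6v0c, Atp6v0d1 and Atp6v1e1) passed as higher in engrafted and not in host cells, 1 (Ctsb) passed as higher and 3 (Lgmn, Mitf and Atp6v1c1) as lower in host and not in engrafted cells, Ctsc passed in opposite directions, Ctse was lower in engrafted cells and not tested in host cells, and 13 were called in neither. Of these single-population calls the difference itself passed for Atp6v0d1. Among members called the same way in both populations, Ctsl, Cd63, Atp6v1g1, Atp6v0e, Ctsf, Tfeb and Atp6v0a1 kept both calls in every alternative. The rest lost a call in some alternative. Between engrafted and host cells, 5 of 35 members (14.3%) were lower in both treatments (Ctsl, Ctsf, Laptm5, Atp6v0a2 and Atp6v1c1), beside 4.65% of 7352 genes, and 1 (2.86%), Ctse, was higher in both, beside 4.73%. The 2 LPS comparisons share no library but draw on the same 8 mice, so their calls are not independent. Each comparison of populations shares its libraries with them.

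Members under the filter need their own account. Ctsj, Ctsr, Ctsq, Ctsm, Atp6v1g3, Atp6v1b1 and Atp6ap1l had no read in any library; the first 4 are placental cathepsins of rodents. Atp6v0d2 had 4 reads in all, Atp6v1c2 2, and Atp6v0a4 and Atp6v1e2 1 each, and Ctsk, the collagen-degrading protease of osteoclasts, had 18 with at most 3 in a library. Ctsw had 45 and Atp6v0e2 52 reads in all. Ctsg, a protease of neutrophil granules, had 7 reads, of which 6 were in the engrafted library of LPS mouse 4. Of the neutrophil list, Prtn3 (47.7 CPM), Elane (11.2 CPM), Camp, S100a9, Mpo, Cxcr2 and Csf3r were highest there among the engrafted LPS libraries. S100a8, Ngp, Retnlg, Mmp8 and Ltf were higher in another engrafted LPS library. The part of neutrophils or their precursors in the other values of mouse 4 was not tested. Atp6v1g2, a G subunit isoform best known from neurons, averaged 14.7 ± 5.33 CPM in engrafted control and 2.34 ± 2.40 in engrafted LPS libraries, and 9.01 ± 3.62 in host control and 3.27 ± 0.811 in host LPS libraries (SD, n = 4). LPS libraries were below control libraries in both populations without overlap, with a two-sided exact permutation p of 0.0286 each, the smallest that 4 against 4 libraries allow. Beside it, the neuron list summed to 12.6 to 60.7 CPM in engrafted control (median 16.3) and 5.61 to 28.1 in engrafted LPS libraries (median 21.8). In host libraries it summed to 12.8 to 183 CPM in control (median 16.9) and 5.56 to 12.1 after LPS (median 8.58). The part of neurons in the result was not tested.

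Other genes of lysosomal biogenesis, sorting and inhibition, 60 in the table, gave a wider frame. Of these, 46 were tested in control mice, with 7 higher and 7 lower in engrafted cells (beside 13.7% of all genes each way), and 46 in LPS mice, with 5 higher and 7 lower (beside 9.52% and 7.64%). LPS raised 12 and lowered 13 of 46 in engrafted cells (beside 19.5% and 19.3%), and raised 11 and lowered 11 of 47 in host cells (beside 19.2% and 20.5%). Cystatins, which inhibit cysteine cathepsins, were among the genes named for size in each comparison but LPS in host cells. Cst7, for the lysosomal inhibitor cystatin F, averaged 23.5 ± 12.4 CPM in engrafted and 124 ± 12.6 CPM in host control libraries, a log2 difference of -2.37 ± 0.22 (edgeR adjusted p = 3.26e-09), and LPS raised it in engrafted cells by 1.76 ± 0.28 (edgeR adjusted p = 6.27e-05) and in host cells by 0.58 ± 0.16 (edgeR adjusted p = 0.00475). After LPS Cst7 was still lower in engrafted cells, at 79.8 ± 18.6 against 188 ± 32.8 CPM in host cells (-1.20 ± 0.20, edgeR adjusted p = 0.000218). Cstb, for the cytosolic cystatin B, averaged 541 ± 104 CPM in engrafted LPS, 109 ± 10.1 in engrafted control and 149 ± 18.5 in host LPS libraries. Its LPS change in engrafted cells was 2.27 ± 0.20, its difference after LPS 1.89 ± 0.21 and its interaction 1.60 ± 0.25 (edgeR adjusted p = 3.41e-08, 2.84e-06 and 0.000129). Cst3, for secreted cystatin C, averaged 9848 ± 1744 CPM in engrafted and 26802 ± 1124 CPM in host LPS libraries, lower by -1.42 ± 0.18 (edgeR adjusted p = 1.86e-05). In control mice Cst3 was lower in engrafted cells by -0.83 ± 0.10 (edgeR adjusted p = 1.88e-07).

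The other genes named for size were of several classes. Tpcn1, an endolysosomal cation channel, fell with LPS by -2.16 ± 0.23 in engrafted and -2.94 ± 0.29 in host cells (edgeR adjusted p = 5.21e-07 and 3.9e-08), while its paralog Tpcn2 rose by 1.54 ± 0.28 and 1.28 ± 0.21 (edgeR adjusted p = 0.000218 and 5.26e-05). Slc29a3, a lysosomal nucleoside transporter, fell by -1.44 ± 0.19 in engrafted and -1.13 ± 0.17 in host cells (edgeR adjusted p = 7.44e-06 and 1.51e-05). Sort1, for the sorting receptor sortilin, was lower in engrafted control cells by -1.27 ± 0.17 and Rraga, a GTPase of nutrient sensing at the lysosome, higher by 1.09 ± 0.24 (edgeR adjusted p = 1.52e-06 and 0.00104), as it was after LPS by 1.27 ± 0.25 (edgeR adjusted p = 0.00144). Gnptab, an enzyme of the mannose 6-phosphate tag, was higher in engrafted cells after LPS by 1.30 ± 0.23 (edgeR adjusted p = 0.000591). In the interaction 2 genes were positive, Cstb and Cst7 (1.17 ± 0.31, edgeR adjusted p = 0.024), and Dmxl1, a V-ATPase regulator, was negative (-1.27 ± 0.36, edgeR adjusted p = 0.0357); the last pair lost the call in 5 and 6 of 22 alternatives.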

How the data were processed

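RNA from sorted engrafted macrophages and host microglia of 8 mice had been made into 3′-end libraries, a derivation of MARS-seq, by the authors. Uniquely mapped reads on mm9 were kept (HISAT, version 0.1.5 per the submitters' processing notes) and counted with HOMER on sense-strand exons of 1 model per gene; the deposited values are raw counts per gene, not normalized. Whether duplicate reads were removed is not given in the sources used here. Reads shared by near-identical genes can be lost or split. All 16 columns were used.

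From these counts, R 4.3.3 with edgeR 4.0.16 ran quasi-likelihood tests on each pair of groups (TMM scaling, filterByExpr with minimum count 10 and minimum total 15, Benjamini-Hochberg adjustment over all genes that passed), and on all 16 libraries for the interaction. The tests were checked on simulated data. DESeq2 1.42.0 and limma 3.58.1 (log2 CPM, prior count 2) were alternatives, with RLE factors, library totals, other filters, 1 fit of all libraries, the mouse as a block and leaving out each library. Depth per library ran from 395283 to 1203597 reads on genes, which limits the precision of genes under about 10 CPM.

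Values were given per library for members past 2-fold in a comparison of 2 groups, members passing the interaction, Tfeb, Mitf and the member of highest mean CPM in each class; other pathway genes were named past 2-fold, at most 3 per comparison, and Tcirg1 always. Genes outside that rule and named with values were chosen after their values were seen. Members and lists were chosen with earlier results of these data known. Libraries of a group came from separate mice. Both populations came from each mouse, so the mouse number pairs them; deviations from the group mean correlated at -0.0298 to 0.21 within a mouse and -0.0626 to 0.00892 on average between mice.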

Additional observations from a re-analysis of the deposited data

Results flagged for a closer look

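In 8 of the 141 sets of 4 libraries with a mean of at least 10 CPM, 1 library lay far from the other 3 by Dixon's criterion, where chance gives about 1 in 20. Engrafted LPS mouse 4 was high for Ctse, at 146 CPM against 76.1 to 87.8 CPM in the other 3, and for Atp6v0a2, at 67.3 against 53.3 to 54.8 CPM. Engrafted LPS mouse 2 was high for Laptm5, at 3431 against 2332 to 2484 CPM. Host LPS mouse 2 was high for Atp6v0d1, at 189 against 138 to 146 CPM, for Atp6ap2, at 369 against 228 to 245 CPM, and for Ctsb, at 4061 against 2839 to 2948 CPM. Host control mouse 6 was high for Atp6v0c, at 43.7 against 24.9 to 27.9 CPM, and host control mouse 5 was low for Atp6v1h, at 33.7 against 44.7 to 45.6 CPM.

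The LPS effect differed between the 2 populations for 3 members, by edgeR's interaction test over all 16 libraries. The difference of the log2 LPS effects, engrafted minus host, was -1.49 for Ctsc (adjusted p = 0.000167), 1.02 for Atp6v0d1 (adjusted p = 0.0141) and -0.76 for Cd63 (adjusted p = 0.0489). Ctsc and Atp6v0d1 kept the call in all 23 alternatives, whereas Cd63 lost it in 15 of 23.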

How the results depend on the processing

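Of the 66 calls of a member in a comparison, 45 were kept in every alternative, 21 were lost in at least 1, and 0 changed sign. Requiring a 2-fold change left 2 higher and 4 lower members between populations in control mice, 2 and 2 in LPS mice, 3 and 4 for LPS in engrafted cells, 2 and 5 for LPS in host cells, and 1 higher and 1 lower in the interaction. The fit of all 16 libraries gave 3 higher in control mice, library totals 2 higher in LPS mice (there the median of all genes moved to -0.16), DESeq2 4 positive interactions, no filter 2 positive and 1 negative, and RLE factors 1 negative. Leaving out each library gave 2 to 5 higher members between populations in LPS mice, 7 to 12 lower for LPS in engrafted cells, 7 to 12 lower for LPS in host cells, and 1 to 3 positive and 1 to 2 negative interactions. The causes were not tested. Without engrafted LPS mouse 4, LPS in engrafted cells gave 8 higher and 12 lower, and the populations after LPS 4 and 6. With the mouse as a replicate block, members were 5 higher and 10 lower in control mice, 4 and 7 in LPS mice, and 1 and 2 in the interaction, and every member called without the block was still called, with Ctss after LPS in addition. Cd63 between populations after LPS (not called) turned to 0.03 and 0.04 without engrafted LPS mouse 2 or 1, a range of -0.19 to 0.04 over libraries left out. Shares of reads over effective library sizes moved the cathepsins to 2.36% in engrafted LPS and 3.42% in host control. Depth limits Mitf, Ctse in host cells and Atp6v0c.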
